A study of Mus musculus with 8 samples.

Results

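The genes described here encode the enzymes that cut, restrain and stabilise the extracellular matrix. They are 60 genes given as a list of matrix proteases, protease inhibitors and crosslinking enzymes, and each was found by its Entrez identifier among the 36528 identifiers of each deposited table. Their RNA was measured in primary mesothelial cells, the lining cells of the body cavities, from the omentum of mice. There were 4 libraries of BAP1 KO cells and 4 of WT cells. BAP1 is a nuclear deubiquitinase that acts on histone H2A. The labels state neither age, sex, strain and culture time nor how BAP1 was knocked out. They also do not say if libraries of the same genotype are separate animals or cultures, and p-values can then reflect technical spread alone.

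Matrix metalloproteases (MMPs) are zinc endopeptidases made as inactive precursors, and tissue inhibitors of metalloproteases (TIMPs) block their active site. ADAM proteases shed membrane proteins from the cell surface, while ADAMTS proteases are secreted and cut proteoglycans or trim procollagen. On the building side, collagen hydroxylases modify proline and lysine inside the cell, and lysyl oxidases and transglutaminase link the fibres outside it. Mesothelial cells and fibroblasts both make matrix, and macrophages of the omentum and peritoneum carry their own set of metalloproteases.

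Total counts per library were 67.1 to 84.9 M. Bap1 had 54.0, 53.1, 52.0 and 53.7 counts per M of the adjusted library total (CPM) in BAP1 KO libraries, against 63.1, 62.6, 62.9 and 64.2 CPM in WT libraries. It was lower in BAP1 KO, at 84.2% of WT (log2 fold change -0.25 ± 0.03 SE, adjusted p = 2.1e-09, edgeR). Since the place of any deletion is not given, reads outside it do not check the labels. Mesothelial markers were present in both genotypes. Upk3b, a uroplakin of mesothelium, averaged 464 CPM in BAP1 KO and 462 CPM in WT, and Wt1, a mesothelial transcription factor, averaged 166 CPM in BAP1 KO and 121 CPM in WT. Msln (mesothelin) and the keratin genes Krt8 and Krt18 were lower in BAP1 KO, with log2 fold changes of -1.19 ± 0.07, -1.56 ± 0.13 and -1.38 ± 0.07. Muc16, Cldn15 and a further keratin gene, Krt7, were higher, with log2 fold changes of 0.93 ± 0.06, 0.81 ± 0.03 and 0.53 ± 0.05. The keratin gene Krt19 had no call. Calb2 (calretinin) was below 0.1 CPM in both genotypes. The other 14 mesothelial markers were 6 higher, 6 lower and 2 without a call, and all 15 summed to 1329 to 1337 CPM in BAP1 KO and 1254 to 1287 CPM in WT. Macrophage RNA was also abundant: Lyz2, the lysozyme of macrophages, averaged 11027 CPM in BAP1 KO and 8388 CPM in WT.

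Of the 60 genes, 59 had enough counts to be tested. In BAP1 KO cells 20 were higher, 31 were lower and 8 did not pass the test (edgeR's quasi-likelihood test, adjusted p under 0.05 over all genes). Among all 16929 genes tested, 61.1% were called, made up of 29.0% higher and 32.1% lower. The 59 genes were called more often, at 86.4%, and they were also more abundant, with a median of 80.1 CPM against 15.5 CPM over all genes tested. The part of that difference in level in the share of calls was not tested. Their median log2 fold change was -0.17, beside -0.00 over all genes. In 49 of the 59 the 4 BAP1 KO values and the 4 WT values did not overlap, a share of 83.1%, beside 53.8% of all genes tested.

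Changes of at least 1.5-fold were found for 3 genes that rose (Htra1, Mmp15 and Adamtsl4) and 10 that fell. The share of all genes that changed this far was not counted. Htra1 rose the most, by 0.87 on the log2 scale, and Fap fell the most, with a log2 fold change of -1.85. At least 2-fold falls were found for 7 genes (Fap, P4ha3, Mmp8, Mmp12, Mmp3, Mmp13 and Adamts16), and 4.56% of all genes tested fell that far and 1.84% rose that far. A test against a 1.5-fold change called Htra1 higher and 10 genes lower, the 7 just named with Reck, Adamts10 and Adamts9, while it called 2.19% of all genes higher and 5.99% lower. In bulk RNA, fewer cells of a type and less RNA per cell cannot be told apart, and this holds for every difference below.

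**Figure D1:**
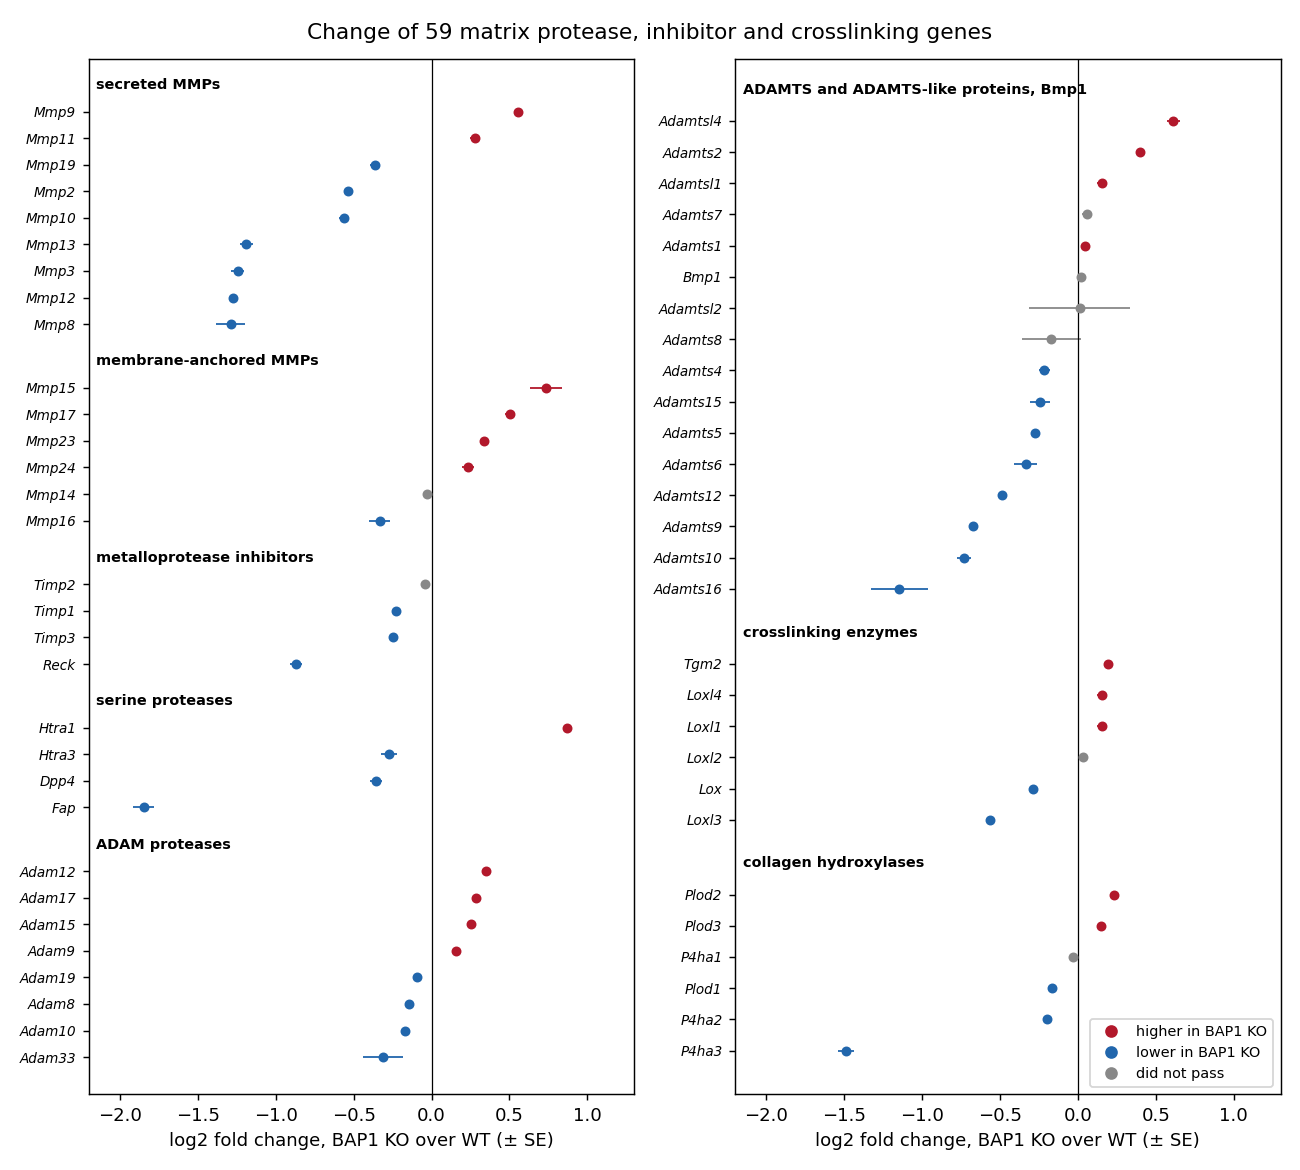
Log2 fold change of BAP1 KO over WT (x axis, points, with bars for the standard error) for the 59 genes tested, in 8 groups by role. Red points passed the test as higher, blue as lower and grey did not pass; the secreted MMPs reach -1.29 while the membrane-anchored MMPs lie between -0.33 and 0.73.

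Of the 9 secreted MMPs 2 were higher and 7 lower, and their median log2 fold change of -0.56 was the lowest of the 8 role groups. Mmp12, the macrophage elastase, had 271, 279.9, 281 and 275 CPM in BAP1 KO libraries, against 663, 671, 692 and 652 CPM in WT libraries. Its level in BAP1 KO was 41.3% of WT (-1.27 ± 0.02, adjusted p = 3e-29, edgeR, 18792 to 57030 counts per library). Mmp3 (stromelysin) cuts proteoglycans and basement membrane proteins and activates other MMPs. It had 11.5, 12.1, 11.5 and 11.02 CPM in BAP1 KO libraries, against 28.2, 26.9, 27.4 and 26.8 CPM in WT libraries, which is 42.2% of WT (-1.24 ± 0.04, adjusted p = 7.3e-22). Mmp13, the main interstitial collagenase of rodents, had 12.2, 11.6, 12.95 and 12.2 CPM in BAP1 KO libraries, against 28.7, 27.8, 27.8 and 27.4 CPM in WT libraries (-1.19 ± 0.04, adjusted p = 2.2e-21). For these 3 genes the WT values were all more than 2 times the highest BAP1 KO value.

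Mmp8, known as neutrophil collagenase, was far less abundant, with 106 to 365 counts per library. Its values were 1.53, 1.77, 1.77 and 2.07 CPM in BAP1 KO libraries, against 3.99, 4.29, 4.55 and 4.59 CPM in WT libraries (-1.29 ± 0.09, adjusted p = 2.3e-13). Neutrophils are the classical source of this enzyme, and 6 of 10 neutrophil markers (S100a9, Ly6g, Ngp, Ltf, Elane and Cxcr2) were below 0.1 CPM in both genotypes. The summed level of the 10 was 6.95 to 7.52 CPM in BAP1 KO and 7.63 to 8.63 CPM in WT. Most of it was Csf3r, the receptor of granulocyte colony-stimulating factor, at 6.24 CPM in BAP1 KO and 7.04 CPM in WT. The part of neutrophils in the fall of Mmp8 was not tested. Mmp10, a second stromelysin, averaged 28.6 CPM in BAP1 KO and 42.3 CPM in WT (-0.56 ± 0.03, adjusted p = 1e-15).

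These 5 genes are neighbours. They lie on chromosome 9 of GRCm38 between 7272514 and 7568486, a stretch of 296 kb, in the order Mmp13, Mmp12, Mmp3, Mmp10, Mmp8. All 5 fell, with a median log2 fold change of -1.24. Of the 10 other MMP genes among the 60, all elsewhere in the genome, 6 rose and 3 fell, 1 did not pass, and their median was 0.26. The windows before their start sites are shown because these are the stretches of DNA that the co-falling genes do or do not share in sequence. Each line gives the 150 bases before the start on the plus strand, from RefSeq on GRCm38.p6, in lower case. Capitals mark the motif TGANTCA, which AP-1 factors of the Fos and Jun families bind, and the TATA motif TATAAA. Only matches that lie wholly within the printed bases are marked.
Mmp13, chr9:7272364-7272513: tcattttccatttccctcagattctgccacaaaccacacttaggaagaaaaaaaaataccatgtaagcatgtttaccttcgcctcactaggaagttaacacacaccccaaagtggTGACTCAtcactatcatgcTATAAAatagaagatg
Mmp12, chr9:7347224-7347373: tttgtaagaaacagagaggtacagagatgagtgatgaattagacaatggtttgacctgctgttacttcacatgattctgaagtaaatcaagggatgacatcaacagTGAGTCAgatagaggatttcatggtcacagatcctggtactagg
Mmp3, chr9:7445672-7445821: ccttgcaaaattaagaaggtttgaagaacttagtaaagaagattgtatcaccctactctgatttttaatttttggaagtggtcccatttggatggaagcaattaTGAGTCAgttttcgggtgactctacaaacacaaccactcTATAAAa
Mmp10, chr9:7502192-7502341: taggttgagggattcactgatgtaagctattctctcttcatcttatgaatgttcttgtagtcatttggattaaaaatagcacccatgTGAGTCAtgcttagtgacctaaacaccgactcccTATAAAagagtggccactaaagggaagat
Mmp8, chr9:7558279-7558428: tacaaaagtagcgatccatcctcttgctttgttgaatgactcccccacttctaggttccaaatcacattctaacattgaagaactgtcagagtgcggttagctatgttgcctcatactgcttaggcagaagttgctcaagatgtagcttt
Both motifs were searched on both strands from 250 bases before to 50 bases after the start. The AP-1 motif began 35 bases before the start in Mmp13, 44 in Mmp12, 46 in Mmp3 and 63 in Mmp10, and none was found in the window of Mmp8. TATAAA began 16 bases before the start in Mmp13, 7 in Mmp3 and 29 in Mmp10. In Mmp12 it began at base 5 counted from the start, and in Mmp8 it lay on the other strand from 3 bases before the start. These matches in Mmp12 and Mmp8 do not lie wholly within the printed bases and are not in capitals. For Mmp12 the table gives 2 starts, and the window of the other start, chr9:7344247-7344396, held neither motif. Across all 32851 windows given by RefSeq, 7.81% held TGANTCA and 13.6% held TATAAA. Among the 35 of the 60 genes with an entry, TGANTCA was found for 5 (Mmp3, Mmp10, Mmp12, Mmp13 and Adam19) and TATAAA for 10. Counted as windows, these genes have 39, of which 5 held TGANTCA and 10 held TATAAA. Adam19, outside the cluster, carried the AP-1 motif too and fell by 0.09 on the log2 scale, and Mmp8 lacked it and fell by 1.29. A match of letters is a description and not evidence of binding.

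The cluster is drawn here at the 5 listed genes, so the MMP gene Mmp27 beside them counts as a neighbour. The genes beside the cluster moved in both directions. Within 1 Mb of the cluster on either side, a distance chosen after the values were seen, 11 further genes were tested, of which 4 rose, 5 fell and 2 did not pass. Birc2 and Birc3, inhibitors of apoptosis, rose by 0.27 and 0.19, and Yap1, a transcriptional coactivator, by 0.20. Mmp27, another MMP gene beside Mmp8, had 1.70, 1.68, 1.58 and 1.35 CPM in BAP1 KO libraries, against 2.87, 2.69, 3.34 and 2.80 CPM in WT libraries (-0.89 ± 0.10, adjusted p = 1.3e-08). Cep126 (-1.05 ± 0.17) and the cation channel gene Trpc6 (-1.60 ± 0.12), farther out on that side, fell as well, at low levels. Cep126 averaged 0.718 CPM in BAP1 KO and 1.49 CPM in WT, and Trpc6 averaged 0.804 CPM in BAP1 KO and 2.44 CPM in WT. Mmp1a and Mmp1b, which lie inside the cluster and of which Mmp1b shares 157 bases of exon with Mmp12, had too few counts to be tested.

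**Figure D2:**
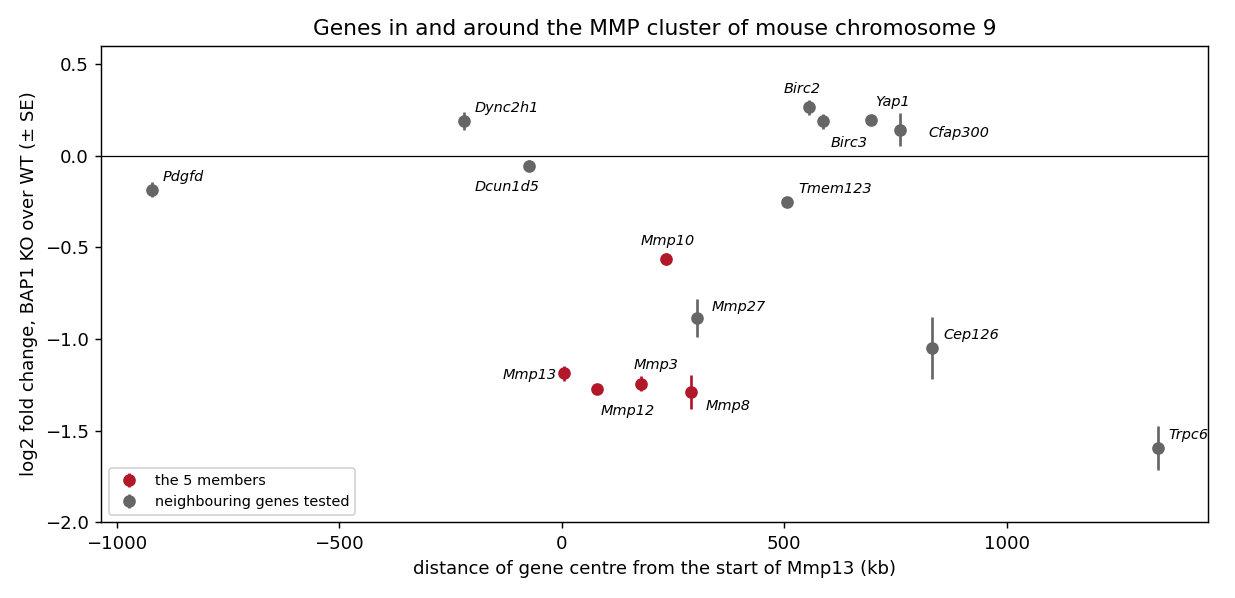
Log2 fold change of BAP1 KO over WT (y axis, bars for the standard error) against the distance of each gene's centre from the start of Mmp13 in kb (x axis). The 5 cluster genes (red) lie between -1.29 and -0.56, while neighbours (grey, with the MMP gene Mmp27 among them) lie on both sides of 0, from -1.60 (Trpc6) to 0.27 (Birc2).

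The 4 secreted MMPs elsewhere were split between both directions. The gelatinases, which degrade denatured collagen and basement membrane collagen, moved apart. Mmp2 had 180.4, 176, 177 and 178 CPM in BAP1 KO libraries, against 254, 258, 258 and 259.5 CPM in WT libraries (-0.54 ± 0.02, adjusted p = 6.5e-20). Mmp9 had 92.7, 91.2, 92.4 and 94.3 CPM in BAP1 KO libraries, against 60.9, 65.7, 62.5 and 62.8 CPM in WT libraries (0.56 ± 0.03, adjusted p = 1.3e-17). The groups did not overlap for either gene, and the 2 changes were close in size and opposite in sign. Mmp19 was lower in BAP1 KO (-0.37 ± 0.03). The kit does not mark strand, and 22.3% of the exon length of Mmp19 overlaps Tmem198b. Tmem198b itself averaged 55.7 CPM in BAP1 KO and 53.4 CPM in WT. Mmp11 was higher (0.28 ± 0.03), and it shares 155 bases with Chchd10, which itself averaged 19.6 CPM in BAP1 KO and 11.3 CPM in WT.

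Among the 6 membrane-anchored MMPs, 4 rose and 1 fell, and the median log2 fold change was 0.28. Mmp14 is the membrane collagenase that activates pro-MMP2 on the cell surface, and it had the highest level per length of any MMP. It had 565, 561, 572 and 569.6 CPM in BAP1 KO libraries, against 578, 587, 567 and 587 CPM in WT libraries (-0.03 ± 0.02, adjusted p = 0.16), and the groups overlapped. With library totals alone it passed at -0.05 (adjusted p = 0.032), and the highest adjusted p under any alternative was 0.33. Mmp15 rose the most in the group, with 2.74, 2.84, 2.78 and 2.51 CPM in BAP1 KO libraries, against 1.76, 1.45, 1.65 and 1.70 CPM in WT libraries (0.73 ± 0.10, adjusted p = 2e-07). Mmp17, tethered by a lipid anchor, had 78.8, 74.8, 73.9 and 76.2 CPM in BAP1 KO libraries, against 49.8, 53.7, 53.2 and 57.2 CPM in WT libraries (0.50 ± 0.03, adjusted p = 2.4e-14). Both genes were higher in every BAP1 KO library than in any WT library.

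Mmp23, whose product is released from the membrane by cleavage, had 83.3, 84.1, 81.8 and 83.5 CPM in BAP1 KO libraries, against 64.2, 65.6, 65.9 and 68.0 CPM in WT libraries (0.34 ± 0.03, adjusted p = 1.5e-12). Mmp16 was the member of this group that fell, with 4.91, 5.42, 5.47 and 4.56 CPM in BAP1 KO libraries, against 6.49, 6.77, 6.62 and 5.83 CPM in WT libraries (-0.33 ± 0.07, adjusted p = 0.00013). Mmp24 rose by 0.23 ± 0.04, and it shares 637 bases of exon with BC029722, which was higher as well. Because RPKM allows levels of different genes to be added, the 15 MMPs were summed on the authors' values. The sum was 499 ± 2.73 RPKM in BAP1 KO and 634 ± 3.31 RPKM in WT (SD, n = 4 each). Mmp12 carried most of this gap, and without it the other 14 summed to 424 ± 3.08 RPKM in BAP1 KO and 454 ± 3.72 RPKM in WT. The 5 cluster genes made up 103 ± 1.253 RPKM of it in BAP1 KO and 231 ± 5.16 RPKM in WT, and the 10 others 396 ± 3.04 RPKM in BAP1 KO and 403 ± 4.87 RPKM in WT.

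Of all 60 genes, 3 of the 5 inhibitors had the highest levels per length, averaged over both genotypes. Timp1, Timp2 and Timp3 averaged 501.7 ± 10.4, 529 ± 8.08 and 466 ± 6.13 RPKM in BAP1 KO, and 583 ± 2.83, 541 ± 14.9 and 548 ± 7.32 RPKM in WT (SD, n = 4 each). In WT the levels of Timp2 and Timp3 lay within their spread of each other. Of the 4 inhibitors tested 3 fell and 1 did not pass. Timp1, a soluble inhibitor, had 455, 457, 439 and 443 CPM in BAP1 KO libraries, against 527, 523, 527 and 527 CPM in WT libraries (-0.23 ± 0.02, adjusted p = 1.8e-11). Timp3, which binds to the matrix and also blocks ADAM proteases, had 2155, 2215, 2223 and 2172 CPM in BAP1 KO libraries, against 2623, 2632, 2589 and 2551 CPM in WT libraries (-0.25 ± 0.02, adjusted p = 7.8e-13). Every BAP1 KO value of both genes was below every WT value. Syn3 shares 1733 bases of exon with Timp3 on the other strand, and its own level was 1.13 CPM in BAP1 KO and 1.02 CPM in WT.

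Timp2, which takes part in the activation of pro-MMP2 by MMP14, had 1951, 1936, 1889 and 1929 CPM in BAP1 KO libraries, against 1906, 2017, 2026 and 1997 CPM in WT libraries (-0.04 ± 0.02, adjusted p = 0.058). It passed with library totals alone, with no filter, with limma-voom and without WT library 1, where the change was -0.06 and the adjusted p was 0.0043. The highest adjusted p under any alternative was 0.18. Timp4 was close to absent, at 0.0258 CPM in BAP1 KO and 0.0203 CPM in WT, and was not tested. Reck, a membrane-anchored inhibitor of MMP9, MMP2 and MMP14, fell further than the TIMPs. It had 14.3, 15.4, 15.3 and 15.4 CPM in BAP1 KO libraries, against 27.0, 29.0, 27.1 and 27.4 CPM in WT libraries, or 54.7% of WT (-0.87 ± 0.04, adjusted p = 3.4e-18). The summed level of the 4 TIMPs was 1497 ± 15.3 RPKM in BAP1 KO and 1673 ± 12.4 RPKM in WT (SD, n = 4 each), and no BAP1 KO library reached the WT sums of either the MMPs or the TIMPs.

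**Figure D3:**
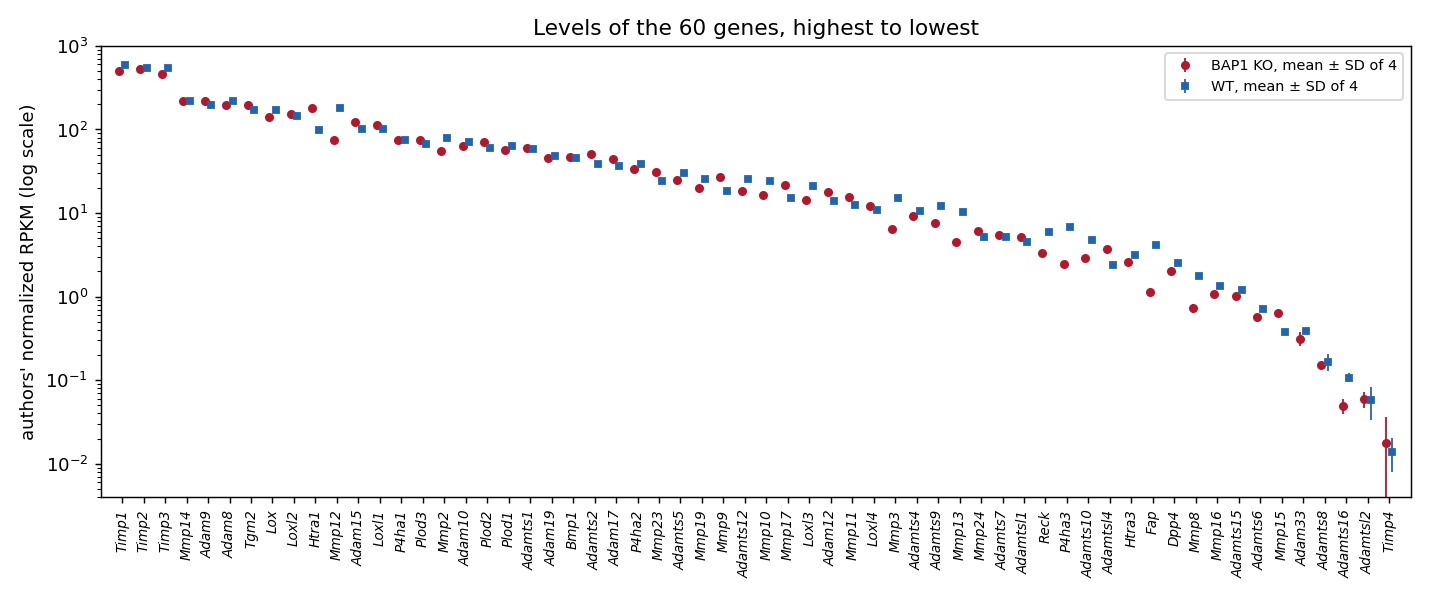
Mean level of each of the 60 genes in the authors' normalized RPKM (y axis, log scale, bars for the SD of 4 libraries), ordered from highest to lowest mean over both genotypes, with BAP1 KO in red left of WT in blue. The 3 abundant TIMPs stand first, at 466 to 583 RPKM, and Mmp12 and Htra1 are the genes above 50 RPKM with the widest gaps between the genotypes.

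The 4 serine proteases held both the largest fall and the largest rise of the 60. Fap, a surface protease that cuts after proline and marks activated fibroblasts, had 2.83, 3.61, 3.32 and 3.14 CPM in BAP1 KO libraries, against 12.3, 11.7, 11.8 and 10.8 CPM in WT libraries. This is 27.8% of WT (-1.85 ± 0.07, adjusted p = 1.2e-20, 196 to 992 counts per library). Its neighbour Dpp4, a dipeptidyl peptidase of the same family 88.6 kb away on chromosome 2, fell less. Dpp4 had 17.4, 18.0, 18.0 and 17.5 CPM in BAP1 KO libraries, against 23.7, 22.3, 23.2 and 21.6 CPM in WT libraries (-0.36 ± 0.04, adjusted p = 3.4e-09).

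Htra1, a secreted protease that cuts fibronectin and proteoglycans, had 385, 373, 364 and 377 CPM in BAP1 KO libraries, against 201, 202, 207 and 209 CPM in WT libraries. It reached 183% of WT (0.87 ± 0.02, adjusted p = 9.7e-25). Its relative Htra3 went the other way, with 10.4, 10.2, 9.52 and 10.7 CPM in BAP1 KO libraries, against 11.8, 11.8, 12.4 and 13.2 CPM in WT libraries (-0.27 ± 0.05, adjusted p = 3.2e-05). The genotypes did not overlap for any of the 4 serine proteases.

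Fibroblast markers moved beside Fap. The median log2 fold change of 10 such markers was -0.35, and 8 of them fell and 2 did not pass. Over all genes tested, 29.0% were higher and 32.1% lower, shares that stand beside each marker count given here. The summed level of the 10 fibroblast markers was 16097 to 16693 CPM in BAP1 KO and 19944 to 21334 CPM in WT. Macrophage markers moved in both directions. Of 17, 7 rose and 8 fell, and the summed level was 18292 to 18892 CPM in BAP1 KO and 15899 to 16258 CPM in WT. Without Lyz2 the other 16 summed to 7609 to 7753 CPM in BAP1 KO and 7675 to 7867 CPM in WT, and these ranges overlap. Mmp12 fell while Adgre1, the macrophage antigen F4/80, averaged 552 CPM in BAP1 KO and 494 CPM in WT, and Cd14 averaged 74.8 CPM in BAP1 KO and 149 CPM in WT. Of 7 endothelial markers tested 5 fell, with a summed level of 31.7 to 33.9 CPM in BAP1 KO and 47.5 to 48.7 CPM in WT, while smooth muscle markers summed to 8749 to 8869 CPM in BAP1 KO and 8518 to 8940 CPM in WT. The part of any of these cell types in the changes of Fap, Mmp12 or any other gene here was not tested.

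**Figure D4:**
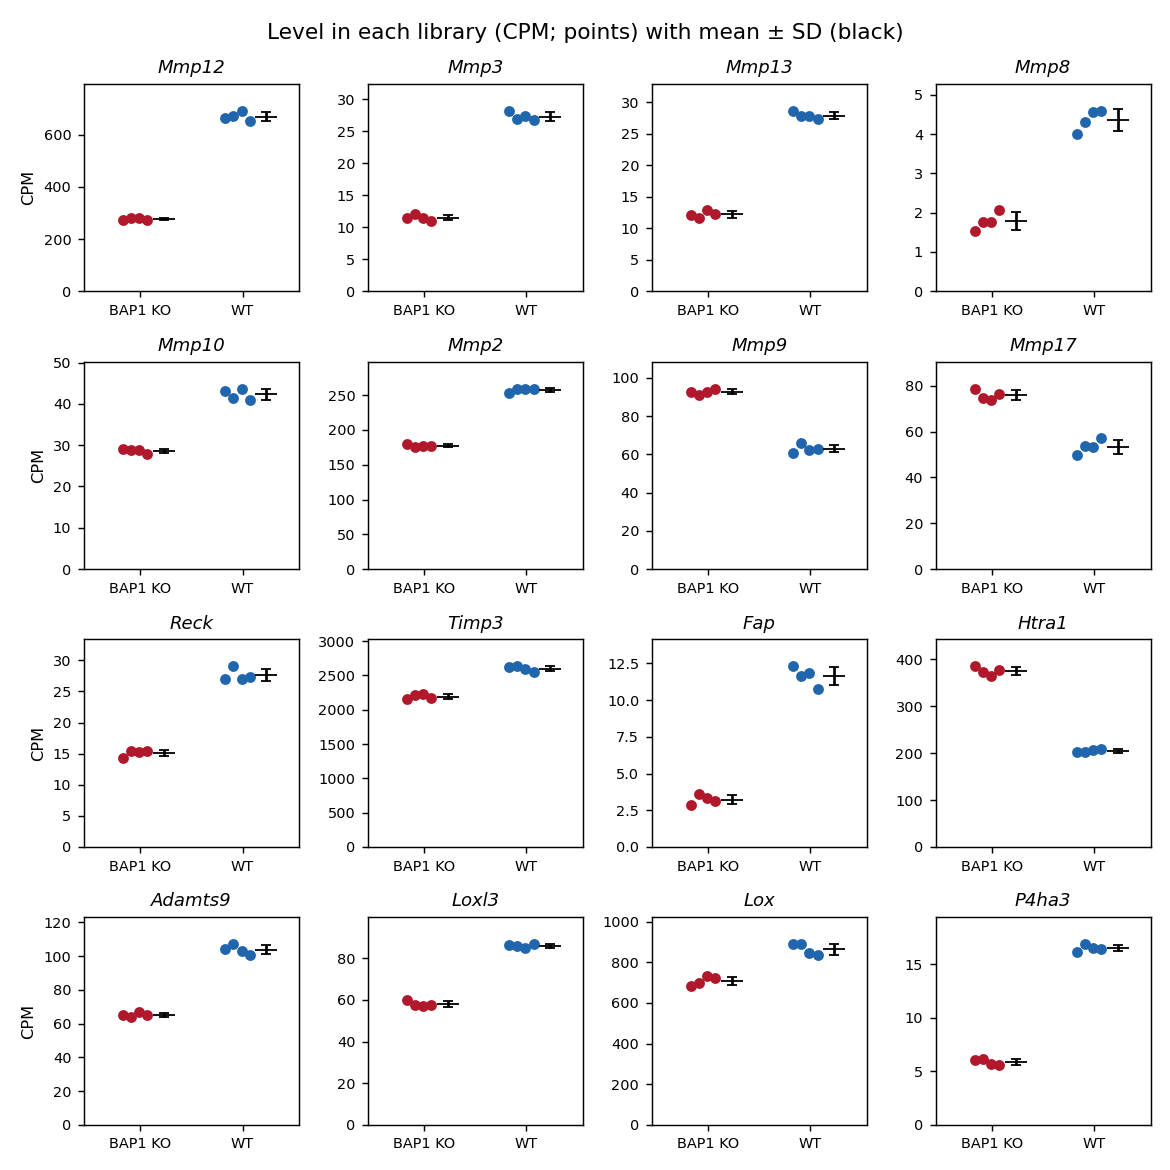
CPM of 16 genes in each of the 4 BAP1 KO (red, left) and 4 WT (blue, right) libraries, with the mean and SD in black; each y axis starts at 0. In each panel all BAP1 KO points lie on the same side of all WT points, above them for Mmp9, Mmp17 and Htra1 and below them for the others.

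The 8 ADAM genes were divided evenly, with 4 higher and 4 lower and small changes throughout, from -0.31 to 0.35. Adam17, the sheddase of TNF and of EGF receptor ligands, had 198, 206, 207 and 206 CPM in BAP1 KO libraries, against 169, 168, 167 and 166 CPM in WT libraries (0.28 ± 0.02, adjusted p = 1e-12). It shares 311 bases of exon with Iah1, which averaged 53.5 CPM in BAP1 KO and 40.5 CPM in WT. Adam10, the related sheddase that cuts Notch and cadherins, had 277, 288, 301 and 288 CPM in BAP1 KO libraries, against 331, 331, 326 and 310.0 CPM in WT libraries (-0.17 ± 0.02, adjusted p = 6.2e-07). The 2 sheddases thus differed in direction in all libraries.

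Adam12, a metalloprotease of regenerating muscle and activated stroma, had 143, 145, 144 and 141 CPM in BAP1 KO libraries, against 115, 114, 111 and 111 CPM in WT libraries (0.35 ± 0.02, adjusted p = 3.5e-14). Adam15 had 424, 407, 417 and 428 CPM in BAP1 KO libraries, against 343, 355, 343 and 364 CPM in WT libraries (0.25 ± 0.02, adjusted p = 2.9e-11), and shares 1263 bases of exon with an antisense gene. Adam9, with the highest level per length of the ADAM genes in BAP1 KO (in WT, Adam8 was higher), had 882, 898, 923 and 909 CPM in BAP1 KO libraries, against 827, 819.7, 798 and 793 CPM in WT libraries (0.16 ± 0.02, adjusted p = 6.3e-08). All 3 were higher in every BAP1 KO library than in any WT library. Adam8, a leukocyte ADAM, fell by 0.14 ± 0.02 and Adam19 by 0.09 ± 0.02. Adam33 passed narrowly at 1.35 CPM in BAP1 KO and 1.66 CPM in WT (-0.31 ± 0.13, adjusted p = 0.036). Its groups overlapped, and the call was lost with DESeq2 and when any of BAP1 KO libraries 1, 2 and 3 or WT libraries 2 and 4 was left out, with adjusted p up to 0.15.

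Of the 16 ADAMTS proteases, ADAMTS-like proteins and Bmp1, 4 rose and 8 fell, 4 did not pass, and the median was -0.19. Adamts9, a proteoglycan-cutting protease, had 65.0, 64.0, 66.7 and 65.2 CPM in BAP1 KO libraries, against 105, 107, 103 and 100.5 CPM in WT libraries (-0.67 ± 0.03, adjusted p = 6e-20), and shares 1381 bases of exon with A730049H05Rik. Adamts10, which binds fibrillin microfibrils, had 12.7, 12.7, 12.6 and 12.3 CPM in BAP1 KO libraries, against 20.5, 20.2, 20.4 and 22.3 CPM in WT libraries (-0.73 ± 0.04, adjusted p = 2e-15). Neither gene overlapped between the genotypes. Adamts12 had 158, 159.9, 163 and 156 CPM in BAP1 KO libraries, against 228, 227, 218 and 218 CPM in WT libraries (-0.49 ± 0.02, adjusted p = 8.5e-18). Adamts16 had the largest fall of the group (-1.15 ± 0.18, adjusted p = 2.8e-06) at a low level, with 0.404, 0.488, 0.319 and 0.524 CPM in BAP1 KO libraries, against 1.02, 1.09, 0.883 and 0.831 CPM in WT libraries.

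Among the aggrecanases, which cut the large cartilage proteoglycan and versican, Adamts5 fell to 203 CPM in BAP1 KO, against 246 CPM in WT (-0.27 ± 0.02), and Adamts4 to 33.6 CPM in BAP1 KO, against 39.0 CPM in WT (-0.21 ± 0.03). Adamts1, a versican-cutting protease 55.0 kb from Adamts5, had 295, 292, 297 and 297 CPM in BAP1 KO libraries, against 286, 290.1, 283 and 283 CPM in WT libraries (0.05 ± 0.02, adjusted p = 0.044). That call was lost with library totals alone, with no filter and when any of BAP1 KO libraries 1, 3 and 4 or WT libraries 3 and 4 was left out, with adjusted p up to 0.17.

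The enzymes that trim procollagen diverged. Adamts2, the procollagen amino-propeptidase, had 476, 450.5, 461 and 472 CPM in BAP1 KO libraries, against 340.2, 355, 349.6 and 366 CPM in WT libraries (0.40 ± 0.02, adjusted p = 1.2e-15). Bmp1, the procollagen carboxy-propeptidase that also activates lysyl oxidase, averaged 297 CPM in BAP1 KO and 293 CPM in WT and did not pass (adjusted p = 0.46). Its relative Tll1, which is outside the 60, had 22.0, 23.5, 24.1 and 22.1 CPM in BAP1 KO libraries, against 39.9, 39.9, 39.0 and 38.2 CPM in WT libraries (-0.77 ± 0.04, adjusted p = 3.6e-18). Tll2, the other tolloid relative, named after its values were seen, went the opposite way at a low level, with 0.407 CPM in BAP1 KO and 0.127 CPM in WT (1.65 ± 0.29, adjusted p = 1e-05). The other procollagen amino-propeptidases differed from Adamts2 too, as Adamts14 fell by 0.09 ± 0.03 and Adamts3 did not pass (-0.08 ± 0.10). Adamtsl4, a microfibril-associated protein without protease activity, rose the most of its group, with 19.2, 19.0, 19.0 and 19.0 CPM in BAP1 KO libraries, against 12.3, 12.9, 11.9 and 12.7 CPM in WT libraries (0.61 ± 0.04, adjusted p = 6.8e-14). Adamts7 (0.06), Adamts8 (-0.17) and Adamtsl2 (0.01) did not pass, and Adamts8 and Adamtsl2 stood at 0.779 CPM or less in every library.

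Of the 6 crosslinking enzymes 3 rose, 2 fell and 1 did not pass. Lox, the lysyl oxidase that oxidises lysine in collagen and elastin, had 682, 696, 730.2 and 721 CPM in BAP1 KO libraries, against 888, 888, 844 and 838 CPM in WT libraries (-0.29 ± 0.02, adjusted p = 4.5e-12). Loxl3 had 59.97, 57.5, 57.1 and 57.7 CPM in BAP1 KO libraries, against 86.3, 86.0, 84.8 and 86.7 CPM in WT libraries (-0.57 ± 0.03, adjusted p = 4.2e-18). It shares 535 bases of exon with Htra2 on the other strand, which averaged 52.0 CPM in BAP1 KO and 49.0 CPM in WT. Loxl4 rose slightly, with 68.9, 66.6, 69.0 and 68.8 CPM in BAP1 KO libraries, against 62.6, 63.0, 58.8 and 61.3 CPM in WT libraries (0.15 ± 0.03, adjusted p = 1.9e-05). Loxl1, which acts on elastin, averaged 381 CPM in BAP1 KO and 343 CPM in WT (0.15 ± 0.03, adjusted p = 1.2e-05).

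Loxl2, a lysyl oxidase of basement membrane collagen, averaged 848 CPM in BAP1 KO and 828 CPM in WT (0.04 ± 0.02, adjusted p = 0.12). It passed with RLE factors (adjusted p = 0.046) and with DESeq2 (adjusted p = 0.034). The summed level of the 5 lysyl oxidase genes was 435 ± 4.80 RPKM in BAP1 KO and 453 ± 5.62 RPKM in WT (SD, n = 4 each), a smaller gap than for the MMP sum. Tgm2, the tissue transglutaminase, stood first among the crosslinking enzymes per length in BAP1 KO and lay within the spread of Lox in WT. It had 716, 702, 707 and 708 CPM in BAP1 KO libraries, against 616, 625, 599 and 640.0 CPM in WT libraries (0.19 ± 0.02, adjusted p = 2.1e-09). Tgm2 shares 633 bases of exon with Gm20412 and 370 with Rprd1b, which averaged 35.4 CPM in BAP1 KO and 37.2 CPM in WT.

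The 6 collagen hydroxylases changed little with a single exception. P4ha3, a catalytic subunit of prolyl 4-hydroxylase, had 6.09, 6.14, 5.72 and 5.63 CPM in BAP1 KO libraries, against 16.2, 16.9, 16.5 and 16.5 CPM in WT libraries. This is 35.7% of WT (-1.49 ± 0.05, adjusted p = 1.3e-21). The other catalytic subunits were far more abundant. P4ha2 had 80.8, 80.8, 76.9 and 81.0 CPM in BAP1 KO libraries, against 90.1, 91.1, 92.4 and 93.4 CPM in WT libraries (-0.20 ± 0.03, adjusted p = 6.1e-08). P4ha1 had 312, 319, 307 and 306 CPM in BAP1 KO libraries, against 325, 316, 318 and 314 CPM in WT libraries (-0.03 ± 0.02, adjusted p = 0.17), and passed with library totals alone (adjusted p = 0.047).

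The lysyl hydroxylases, which prepare lysine for crosslinks and sugar chains, were split. Plod2, the hydroxylase of collagen telopeptides, had 258, 269, 271 and 267 CPM in BAP1 KO libraries, against 231, 227, 228 and 221 CPM in WT libraries (0.23 ± 0.02, adjusted p = 1.5e-10). Plod1, which acts on the helix, had 186, 182, 183 and 186 CPM in BAP1 KO libraries, against 202, 206, 202 and 216 CPM in WT libraries (-0.17 ± 0.02, adjusted p = 3.1e-07). Plod3 averaged 265 CPM in BAP1 KO and 239 CPM in WT (0.14 ± 0.02, adjusted p = 3.4e-06). It shares 529 bases of exon with Znhit1 on the other strand, which averaged 45.9 CPM in BAP1 KO and 41.6 CPM in WT. None of the 3 lysyl hydroxylase genes overlapped between the genotypes.

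A further 55 genes of the same pathways were listed for comparison, and 40 of them were tested. In BAP1 KO 9 were higher, 21 lower and 10 did not pass, so 75.0% were called, with a median log2 fold change of -0.09. Over all genes tested 61.1% were called, made up of 29.0% higher and 32.1% lower, and the median was -0.00. Of 3 other MMPs tested, Mmp27 and Mmp28 (-0.49 ± 0.12) fell and Mmp25 did not pass. Both other transglutaminases tested fell, Tgm1 by 0.58 ± 0.07. F13a1, the factor XIII subunit made by macrophages and platelets, had 16.5, 16.7, 16.4 and 15.1 CPM in BAP1 KO libraries, against 52.6, 51.1, 50.9 and 51.5 CPM in WT libraries (-1.67 ± 0.04, adjusted p = 8.9e-27). Of the 7 genes of plasminogen activation, a protease system that can activate MMP precursors, 2 rose, 4 fell and 1 did not pass. Plat, tissue plasminogen activator, averaged 115 CPM in BAP1 KO and 169 CPM in WT (-0.55 ± 0.02, adjusted p = 7e-19). Serpinb2 and Serpine2, inhibitors of plasminogen activators, fell by 0.97 ± 0.09 and 0.59 ± 0.04.

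In the list of collagen processing and folding 1 gene rose, 7 fell and 3 did not pass, the largest fall being that of the prolyl 3-hydroxylase gene P3h3 (-0.47 ± 0.03). Crtap, a partner of prolyl 3-hydroxylase, fell by 0.27 ± 0.03, and Pcolce2, an enhancer of procollagen cleavage, rose by 0.32 ± 0.04. Among the 8 convertases and other surface proteases, 4 rose, 2 fell and 2 did not pass. Htra4 averaged 4.67 CPM in BAP1 KO and 2.14 CPM in WT (1.12 ± 0.08, adjusted p = 6.5e-13), in the same direction as Htra1, though 792 bases of its exons overlap the gene Gm16933. Anpep, the surface aminopeptidase CD13, averaged 157 CPM in BAP1 KO and 263 CPM in WT (-0.74 ± 0.02, adjusted p = 2e-23), and Mme, neprilysin or CD10, fell by 0.51 ± 0.13. Of the 9 other ADAMTS, ADAMTS-like and tolloid genes 2 rose, 4 fell and 3 did not pass. Beside Tll1, Papln (papilin) fell by 0.79 ± 0.11 and Adamts20 by 0.71 ± 0.10, and beside Tll2, Adamtsl5 rose by 0.33 ± 0.03.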

How the data were processed

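The authors deposited raw counts of reads that align uniquely to a gene model, per the file headers. The authors' RPKM values are scaled by a per-library size factor (also per the file headers) and were used only to compare or sum levels of different genes. Per the labels' protocols, libraries were made with the TruSeq RNA v2 kit, which does not mark strand, and sequenced as single-end reads. GSNAP and GRCm38 were used, per the submitters' processing notes; version, annotation and strand setting are not stated in these sources.

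Counts of all genes were tested with edgeR 4.0.16 (R 4.3.3): filterByExpr by genotype, TMM factors, robust quasi-likelihood F test, Benjamini-Hochberg adjustment over 16929 genes, threshold 0.05. Fold changes are log2 of BAP1 KO over WT, and the standard error is the change divided by the square root of F. CPM use TMM-adjusted totals. Libraries of a genotype differed by 2.36 to 5.20 times counting noise, so none was a library deposited again; this does not show separate animals or cultures. The biological coefficient of variation was 0.029. Replicates carry accession-order numbers only. Alternatives were RLE factors, library totals alone, DESeq2 1.42.0, limma-voom (limma 3.58.1), no filter, a filter of over 1 CPM in 4 libraries or more, a test against a 1.5-fold change, and each library left out in turn.

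Symbols and promoters came from RefSeq on GRCm38.p6 by Entrez identifier, and exon overlaps from GENCODE vM21. Exons of 21 of the 60 genes overlap another gene, and their reads cannot be told apart there. Not all of these overlaps are named above. Values in every library are given for up to 4 genes per role that passed, did not overlap and reached 1 CPM, chosen by size of change, with each role's most abundant gene and the TIMPs; Adamts16 and a few others were added. Other pathway genes follow the same rule, up to 3 per list, with Mmp25, Tll2, Adamtsl5, Adamts14 and Adamts3 added. Some genes are not reported here. The genes and lists were chosen with earlier results of these data known.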

Additional observations from a re-analysis of the deposited data

Results flagged for a closer look

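In 8 of 118 sets of 4 libraries of a genotype, a single library stood apart from the other 3 by Dixon's criterion; chance gives about 1 in 20. Mmp11 was 34.2 CPM in BAP1 KO library 2, against 36.3 to 36.6 CPM in the other 3. Reck was flagged in both genotypes, at 14.3 CPM in BAP1 KO library 1 (others 15.3 to 15.4 CPM) and 29.0 CPM in WT library 2 (others 27.0 to 27.4 CPM). Adam17 was 198 CPM in BAP1 KO library 1, where the others had 206 to 207 CPM. Loxl4 was 66.6 CPM in BAP1 KO library 2, with the others at 68.8 to 69.0 CPM. P4ha2 was 76.9 CPM in BAP1 KO library 3, with the others at 80.8 to 81.0 CPM. In WT, Timp1 was 523 CPM in library 2, with the others at 527 CPM, and Adamts10 was 22.3 CPM in library 4, with the others at 20.2 to 20.5 CPM. Each of these 7 genes had the same call without the library in question.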

How the results depend on the processing

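Apart from the test against a 1.5-fold change there were 14 alternatives. Of the 59 genes tested, 52 had the same direction and call under every one that was run for them: 50 under 14, and Adamts8 and Adamts16 under 13, because the filter of over 1 CPM removed them. The other 7 were Mmp14, Timp2, Adam33, Adamts1, Adamtsl2, Loxl2 and P4ha1. Adamtsl2, which did not pass, changed sign to -0.0042 with library totals alone and to -0.14 without BAP1 KO replicate 4, -0.15 without WT replicate 3 and -0.12 without WT replicate 4, within a range of -0.15 to 0.34 as each library was left out; its counts were 9 to 26 per library, and the cause was not tested. The test against a 1.5-fold change, stricter by construction, called 370 genes higher and 1014 lower, of which 1 and 10 were among the 60 and 2 and 5 among the other pathway genes. Leaving out each library gave 19 to 20 higher and 30 to 32 lower genes of the 60. No paired analysis was possible because the labels give no replicate numbers. Low counts limit the precision for Timp4, Adamtsl2, Adamts16 and Adamts8.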
